A study of Mus musculus with 6 samples.

Results

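Thyroid hormone reaches its target genes through a short chain of proteins, and 9 genes of that chain were read in pressure-overloaded mouse hearts. They are the receptors Thra and Thrb, the receptor partners Rxra, Rxrb and Rxrg, the activating deiodinase Dio2, the transporter Slc16a10, the corepressor Ncor1 and the target gene Klf9. They were taken by gene name from the deposited count table, where each had 1 row, and are 9 of its 54532 genes. Left ventricular RNA of 3 TG and 3 NTG mice was sequenced as poly-A selected libraries 4 weeks after aortic banding (AB), which narrows the aorta and loads the heart with pressure. The study asked what overexpression of HINT2, a mitochondrial nucleotide hydrolase, does to the banded heart, and it raised the receptor THRB as a possible regulator of HINT2. The mice were male and 8 to 10 weeks old at surgery.

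TG mice are labelled HINT2CTG-Myh6Cre. Their transgene is human HINT2 under the CAG promoter, kept silent by a floxed stop until Myh6-driven Cre, active in cardiomyocytes after tamoxifen, cuts it out (5 mg/kg/d for 7 days). NTG mice are labelled C57BL/6J, a label that names neither transgene nor Cre, and the methods do not say whether they received tamoxifen. Effects of the transgene, of Cre and of tamoxifen therefore cannot be told apart in these groups. All 6 mice were banded, so the samples hold no measure of what banding itself did to the 9 genes.

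Thyroid hormone arrives in tissue largely as the prohormone thyroxine (T4), which deiodinase 2 converts to the active hormone T3 and deiodinase 3 inactivates. T3 binds receptors that sit on DNA with a retinoid X receptor as partner, where unliganded receptors hold corepressors such as NCOR1 and liganded receptors recruit coactivators. In the adult heart T3 favours the fast myosin gene Myh6 and the calcium pump gene Atp2a2 over the slow myosin gene Myh7, and THRA is known as the main cardiac receptor.

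Libraries held 14863568 to 17581220 counts on genes in NTG and 14944465 to 17235802 in TG, and mitochondrially encoded genes took 13.4% to 19.2% and 16.0% to 21.5% of them. Values below are CPM, counts scaled to a common library size, after TMM scaling for composition. The library labelled NTG 1 goes against its label in the targeted gene, with 12 counts of mouse Hint2 where the other NTG libraries had 545 and 559, and values without it are given where it moved a result most. The ventricular label was read against its markers. Myl2, the ventricular myosin light chain gene, had 2718 to 5638 CPM over the libraries, while the atrial genes Myl7, Myl4 and Sln were at 7.67 CPM, 17.4 CPM and 4.09 CPM in TG 2 and higher still in NTG 1 and TG 3, and under 3 CPM in the other 3 libraries. Nppa, the fourth atrial marker and one that load also raises in the ventricle, had 754, 1394 and 1400 CPM in NTG and 172, 867 and 268 CPM in TG. The signal of Myl7, Myl4 and Sln did not follow the groups, and its part in the values below was not tested.

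Dio2 stood furthest from equality between the groups, with less in TG hearts, while Thra, Rxrb and Rxrg had more in TG hearts. None of the 9 genes passed the adjusted threshold. All 9 entered edgeR's quasi-likelihood test, with p-values adjusted by Benjamini-Hochberg over 14774 genes. A call needed an adjusted p under 0.05 together with a difference beyond 0.5 on the log2 scale, and 0 of the 9, like 0% of all genes tested, met it. An unadjusted p under 0.05 was reached by 4 of the 9, against 18.6% of all genes (2747 genes). Of these, 3 were higher in TG and 1 was lower, against 8.83% and 9.76% of all genes. DESeq2 called 1 of the 9, Thra, at the same thresholds, against 3.95% of all genes, and limma-voom called 0. The TG and NTG libraries did not overlap for 4 of the 9, against 23.5% of all genes. These were Thra, Rxra and Rxrb, with TG above, where 11.2% of all genes had TG above, and Dio2, with TG below, where 12.3% did. With scaling by library size alone the count was 3, and Rxra overlapped. The median log2 fold change was 0.30 over the 9 genes and -0.01 over all genes tested, with 7 of the 9 fitted higher and 2 lower. With scaling by library size alone, the median of all genes moved to -0.09.

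**Figure D1:**
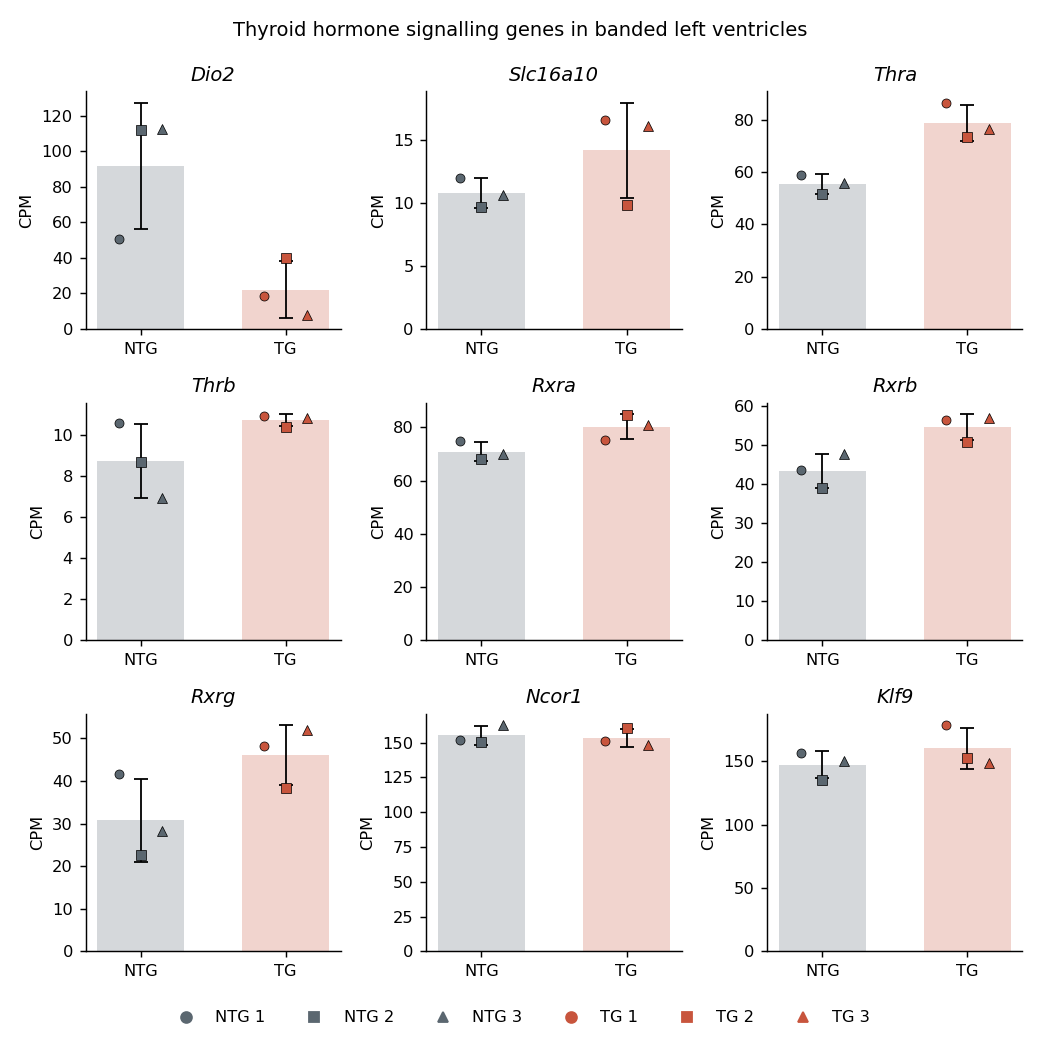
TMM-scaled CPM (vertical axes, from 0) of the 9 genes in the 3 NTG (grey) and 3 TG (red) libraries, with the bar at the group mean, the error bar at 1 SD and the marker shape giving the library number. Dio2 is lower in every TG library than in any NTG library, Thra and Rxrb are higher in every TG library, and Ncor1 and Klf9 overlap.

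Thra encodes the receptor that dominates in heart muscle. It is on the plus strand of chromosome 11 (chr11:98740638-98769006, GRCm38). In NTG 1, NTG 2 and NTG 3 Thra had 58.8, 51.5 and 55.9 CPM, and in TG 1, TG 2 and TG 3 it had 86.5, 73.3 and 76.5 CPM. The lowest TG library lay above the highest NTG library, and TG 1 was highest. The means were 55.4 ± 3.72 CPM (SD, n = 3) in NTG and 78.8 ± 6.91 CPM (SD, n = 3) in TG. The log2 fold change of Thra was 0.51 (standard error, SE, 0.10, with a 95% interval of 0.28 to 0.74), with an unadjusted p of 0.000889 and an adjusted p of 0.196 by edgeR. The smallest adjusted p of any gene was also 0.196. Thra ranked 48 of 14774 genes by p.

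The call of Thra depended on the test. DESeq2 gave it an adjusted p of 0.00744 and edgeR's likelihood-ratio test 0.0142, a test that called 3.69% of all genes. Without the library labelled NTG 1 the quasi-likelihood test gave Thra a log2 fold change of 0.55 and an adjusted p of 0.0337, and then called 5.52% of all genes. Over the alternatives the adjusted p of Thra ranged from 0.00744 to 0.425 and its log2 fold change from 0.42 to 0.56. The 3' end of Thra overlaps Nr1d1, which encodes the clock repressor REV-ERBα on the opposite strand. The genes share 263 exon bases, or 5.7% of the exon length of Thra, and the strand setting of the counting is not given in the sources used here, so reads in that stretch cannot be assigned to one gene. Nr1d1 itself had 25.0, 36.2 and 43.3 CPM in NTG and 27.8, 21.5 and 38.9 CPM in TG, with overlapping groups and a log2 fold change of -0.25 (SE 0.27, adjusted p = 0.642, edgeR).

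Thrb encodes the second receptor and is the gene the study names as a possible regulator of HINT2. The study proposed this from predicted promoter sites, literature and correlations of THRB with HINT2 in public data from other samples. Thrb spans chr14:17660261-18038090 (GRCm38, plus strand). Thrb had 10.6, 8.71 and 6.94 CPM in NTG 1, NTG 2 and NTG 3, from 155, 164 and 120 counts. In TG 1, TG 2 and TG 3 it had 11.0, 10.4 and 10.9 CPM, from 152, 183 and 176 counts. The TG libraries were close together, the NTG libraries were spread out, and NTG 1 fell among the TG libraries. The log2 fold change of Thrb was 0.30 (SE 0.18, 95% interval -0.11 to 0.70, adjusted p = 0.381, edgeR), so a difference was not shown, and the interval still holds a fold of up to 0.70 on the log2 scale. It was 0.45 (adjusted p = 0.146, edgeR) without NTG 1 and 0.16 without NTG 3, the limits of its range.

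By RNA, Thrb was lower than Thra in every library. Counts are per gene, over 9 annotated transcripts of Thra and 7 of Thrb, so splice forms of the receptors cannot be told apart. Per kilobase of gene length, the scale on which levels of different genes can be compared, Thra was on average 11.0 times as high as Thrb, and 6.65 times per kilobase of coding length. The share of Thrb in the sum of both receptors per kilobase was 10.1%, 9.54% and 7.19% in NTG and 7.32%, 8.13% and 8.13% in TG. NTG 1 and NTG 2 had the highest shares and NTG 3 the lowest, so the TG values lay inside the NTG range. The log2 ratio of Thrb to Thra in CPM was -2.68 ± 0.286 (SD, n = 3) in NTG and -2.87 ± 0.0949 (SD, n = 3) in TG, a difference of -0.19 with p = 0.4 by a two-sided exact permutation test. It was -0.09 without NTG 1 and -0.35 without NTG 3. With 3 libraries against 3, the exact test can go no lower than p = 0.1.

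The genes whose profile over the 6 libraries was most like that of Thrb were Mtrf1l, Tmem51, Creb5, Cpsf6 and Homer1. Likeness was the root mean square difference of log2 CPM after each gene was centred on its own mean, and these genes differed from Thrb by 0.0525 to 0.0702, against a median of 0.318 over 14773 genes. Each of them shared the dip in NTG 3. Homer1, which encodes a scaffold protein, had 48.5, 37.0 and 34.9 CPM in NTG and 51.1, 48.9 and 50.2 CPM in TG.

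Over the 6 libraries Hint2 had a different profile from Thrb, but this rested largely on NTG 1. Without that library Hint2 was closer to Thrb than the median gene was. Mouse Hint2 had 0.819, 28.9 and 32.3 CPM in NTG and 57.2, 47.1 and 53.0 CPM in TG, and its difference from Thrb was 2.12, which ranked 14766 of 14773 genes. NTG 1 had the least Hint2 of all libraries and the most Thrb of the NTG libraries. Without NTG 1 the difference was 0.225, rank 2690, against a median of 0.328 over all genes. Among NTG 2 and NTG 3 the library with more Thrb had less Hint2. The transgene is human and driven by CAG, so its reads enter the count of mouse Hint2 only as far as they align there, and the Hint2 values of TG hearts do not read the mouse promoter alone.

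**Figure D2:**
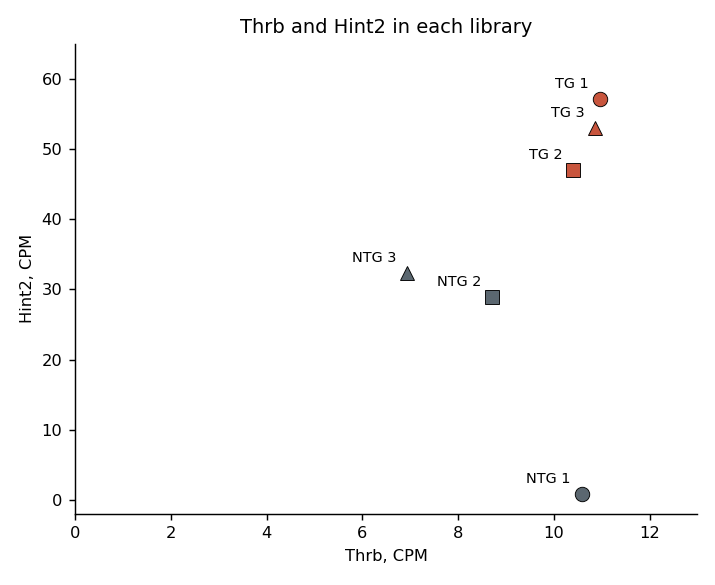
Thrb (horizontal axis, CPM) and mouse Hint2 (vertical axis, CPM) in each of the 6 libraries, NTG in grey and TG in red, 1 point per library. NTG 1 has 0.819 CPM of Hint2 at 10.6 CPM of Thrb, and the TG libraries have 47.1 to 57.2 CPM of Hint2 at 10.4 to 11.0 CPM of Thrb.

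The start of mouse Hint2 is shown because Thrb is read beside Hint2 here. The study's predicted sites lie in a longer stretch of the human promoter and were not searched here. The window runs from 250 bases before to 50 after the RefSeq start, on the minus strand at chr4:43656396-43656695 (RefSeq, GRCm38.p6), and is written 5′ to 3′ along the gene. The thyroid hormone receptor half-site AGGTCA would be in capitals, was searched on both strands and was not found in these letters.
Hint2: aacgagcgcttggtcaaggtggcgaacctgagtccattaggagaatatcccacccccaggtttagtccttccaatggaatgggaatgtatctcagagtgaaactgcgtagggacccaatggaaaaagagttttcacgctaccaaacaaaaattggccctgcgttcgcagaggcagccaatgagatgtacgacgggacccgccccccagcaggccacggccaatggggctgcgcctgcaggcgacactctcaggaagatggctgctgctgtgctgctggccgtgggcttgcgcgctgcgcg

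AGGTCA stood in 16.3% of 32851 RefSeq promoter windows of this length, and the classical response element, 2 of them in direct repeat with 4 bases between, stood in 5 of them, or 0.015%. Of the 9 thyroid hormone genes, 8 had a window, and Thra had no entry. Thrb held AGGTCA once, 184 bases before its start, and the other 7 did not, nor did any of the 8 hold the direct repeat. The window of Ncor1 (start site 62438515, minus strand) lies inside the gene as counted, which begins at 62458541. An absent match says only that these letters are not in the window.

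The retinoid X receptors pair with the thyroid hormone receptors on DNA, and with many other nuclear receptors. All 3 genes were fitted higher in TG hearts. Rxrb (chr17:34031812-34038393) had 43.6, 39.1 and 47.7 CPM in NTG and 56.4, 50.9 and 56.9 CPM in TG. Each TG library was above each NTG library, with a log2 fold change of 0.33 (SE 0.10, unadjusted p = 0.0118, adjusted p = 0.204, edgeR). Rxrg, the isotype known from heart and skeletal muscle (chr1:167598384-167639623), had 41.6, 22.6 and 28.3 CPM in NTG and 48.2, 38.3 and 51.9 CPM in TG. NTG 1 was above TG 2, so the groups overlapped, while NTG 2 and NTG 3 were the lowest of the 6 libraries. The log2 fold change of Rxrg was 0.58 (SE 0.23, unadjusted p = 0.0356, adjusted p = 0.236, edgeR). Without NTG 1 it was 0.86 (adjusted p = 0.0313, edgeR), and Rxrg and Thra were then the called genes among the 9. Rxra (chr2:27676440-27762957) had 74.8, 67.9 and 69.9 CPM in NTG and 75.2, 84.7 and 80.9 CPM in TG. The groups did not overlap, but TG 1 lay only just above NTG 1, and the log2 fold change of Rxra was 0.18 (SE 0.09, 95% interval -0.02 to 0.38, adjusted p = 0.311, edgeR).

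Per kilobase, Rxrg took 41.5%, 29.9% and 32.4% of the sum of the 3 retinoid X receptor genes in NTG and 42.0%, 36.3% and 42.8% in TG. NTG 1 was among the TG values. These shares depend on the length used, since per kilobase of coding length the mean over the 6 libraries was 53.9 CPM for Rxra, 31.2 for Rxrb and 27.7 for Rxrg, which puts Rxrg last and not first. The mean share was 5.71 percentage points higher in TG (exact permutation test, two-sided, p = 0.2), 9.16 points without NTG 1 and 3.36 points without NTG 2. The shares of Rxra, 34.3% ± 3.29 in NTG and 29.8% ± 3.46 in TG (SD, n = 3), and of Rxrb, 31.1% ± 3.57 and 29.9% ± 0.673 (SD, n = 3), gave exact permutation p of 0.3 and 0.6. These 3 shares add up to the whole and so are not separate measurements.

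**Figure D3:**
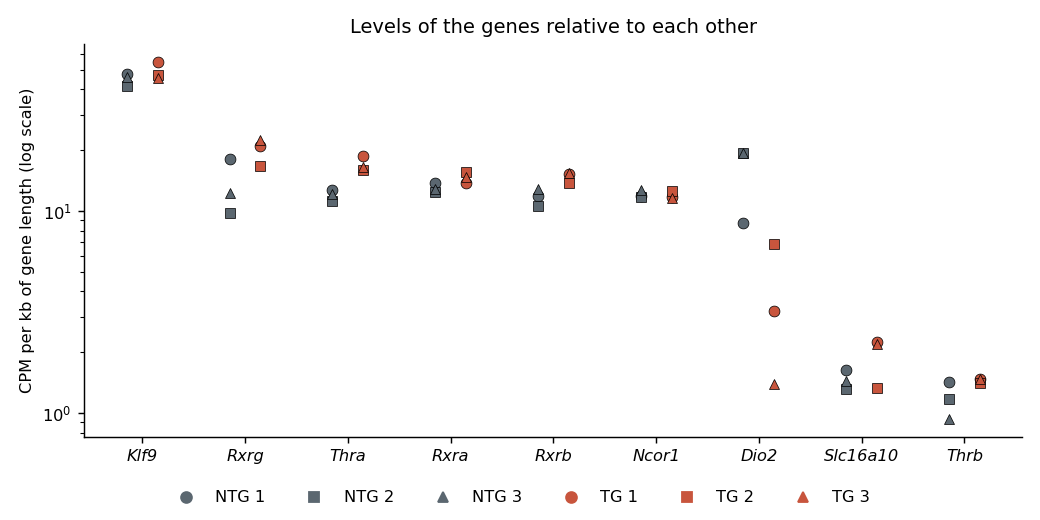
CPM per kilobase of gene length (vertical axis, log scale) of the 9 genes in each library, NTG in grey on the left and TG in red on the right of each gene, ordered by the mean of the 6 libraries. Klf9 is highest and Thrb lowest, and Dio2 runs from 1.39 to 19.3 while the other genes stay within narrow bands.

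On this scale Klf9 was the most abundant of the 9 genes, with 41.5 to 54.7 CPM per kilobase, above every value of every other gene. Rxrg (9.83 to 22.6), Thra (11.2 to 18.8), Rxra (12.4 to 15.5), Rxrb (10.6 to 15.4) and Ncor1 (11.6 to 12.7) formed a group whose ranges in CPM per kilobase overlapped, so their order is not separated by the spread between libraries. Slc16a10 (1.32 to 2.26) and Thrb (0.938 to 1.48) were the lowest and overlapped each other. Dio2 ranked 2 by its NTG mean of 15.8 CPM per kilobase and 7 by its TG mean of 3.82. Its range over the 6 libraries, 1.39 to 19.3, covered those of Thra, Rxra, Rxrb and Ncor1. The gene length of the table is shorter for Klf9 than the merged exons of GENCODE M21 (3263 against 4815 bases), which raises its value on this scale.

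Dio2 encodes type 2 deiodinase, which makes T3 from T4 inside the cell. It is on the minus strand of chromosome 12 (chr12:90724552-90738438). Dio2 had 50.5, 112 and 112 CPM in NTG 1, NTG 2 and NTG 3, from 740, 2110 and 1943 counts. In TG 1, TG 2 and TG 3 it had 18.5, 40.0 and 8.09 CPM, from 257, 704 and 131 counts. Every TG library was below every NTG library, and the values inside each group differed widely, with NTG 1 nearest to the TG libraries and TG 2 nearest to the NTG libraries. The means were 91.7 ± 35.6 CPM (SD, n = 3) in NTG and 22.2 ± 16.3 CPM (SD, n = 3) in TG. The log2 fold change of Dio2 was -2.04 (SE 0.58, 95% interval -3.44 to -0.64), a level 4.11 times as high in NTG, with an unadjusted p of 0.011 and an adjusted p of 0.203 by edgeR. DESeq2 gave an adjusted p of 0.0576. The likelihood-ratio test called Dio2 with an adjusted p of 0.0246, and over all alternatives this p ran from 0.0246 to 0.518. The size depended on single libraries, from -1.64 without TG 3 to -2.79 without TG 2. Without NTG 1 it was -2.33 (adjusted p = 0.136, edgeR).

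The start of Dio2 is shown because this gene had the widest separation, and because it is known as a gene that cyclic AMP induces. The window is chr12:90738989-90739288 on the minus strand (RefSeq, GRCm38.p6), 5′ to 3′ along the gene, and its start site at 90739038 lies upstream of the gene's end in the count table. Capitals mark the cyclic AMP response element TGACGTCA, 95 bases before the start, and the TATA box TATAAA, 30 bases before it. Both strands were searched, and the motifs do not overlap.
Dio2: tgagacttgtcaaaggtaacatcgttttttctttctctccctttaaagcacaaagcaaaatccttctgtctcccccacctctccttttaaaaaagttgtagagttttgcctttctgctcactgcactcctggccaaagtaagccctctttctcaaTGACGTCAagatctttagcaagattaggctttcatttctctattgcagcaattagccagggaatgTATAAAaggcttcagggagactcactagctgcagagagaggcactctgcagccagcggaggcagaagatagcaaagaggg

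TGACGTCA stood in 1.79% and TATAAA in 13.6% of all windows, and AGGTCA was not found in that of Dio2. TGACGTCA was in none of the other 7 windows. A match describes the sequence and measures no binding in these hearts.

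Markers of fibroblasts, macrophages and erythroid cells were fitted lower in TG, as Dio2 was, and none passed the adjusted threshold in edgeR's quasi-likelihood test. Of the genes named below, DESeq2 called Postn, Dcn, Hbb-bs, Hba-a1 and Alas2 at the same thresholds (adjusted p of 6.1e-07 to 0.0285). DESeq2 also called some other fibroblast and erythroid markers, but no macrophage marker. Bulk RNA was measured, so fewer cells of a type and less RNA per cell cannot be told apart. All 8 fibroblast markers were fitted lower in TG, 6 of them at an unadjusted p under 0.05, with a median log2 fold change of -0.88. Their summed level was 4709 to 10852 CPM in NTG and 2317 to 4017 CPM in TG, and none was at 0. NTG 1 was the lowest NTG library and TG 2 the highest TG library in both the fibroblast sum and Dio2. Postn, a matricellular gene of activated fibroblasts, had a log2 fold change of -2.54 (SE 0.65, adjusted p = 0.196, edgeR), and the matrix genes Col3a1 and Dcn had -1.45 and -0.65. The part of fibroblast content in the Dio2 values was not tested. All 6 macrophage markers were also fitted lower (2 at an unadjusted p under 0.05), with summed levels of 757 to 1390 CPM in NTG and 569 to 802 CPM in TG, and so were all 5 erythroid markers (5 at an unadjusted p under 0.05), with 1310 to 2245 CPM and 762 to 908 CPM. Csf1r, Cd68 and Lyz2 had log2 fold changes of -0.59, -0.76 and -0.56, and the haemoglobin genes Hbb-bs and Hba-a1 and the haem enzyme gene Alas2 had -1.20, -1.02 and -1.55. Endothelial markers were divided, with 3 of 6 fitted higher (Kdr and Tie1 at 0.37 and 0.23, against Vwf at -0.81 on the log2 scale) and sums of 2179 to 2616 CPM in NTG and 2220 to 2452 CPM in TG. So were the 5 smooth muscle and pericyte markers, with 3 fitted higher (Acta2 and Myh11 at 0.42 and 0.70, against Pdgfrb at -0.23). Brown fat also expresses Dio2, and the 4 adipocyte markers, Ucp1 included, summed to 0.159 to 1.02 CPM in NTG and 0.0721 to 2.53 CPM in TG, near 0 in every library. Of the 5 skeletal muscle markers, the fast myosin genes Myh4 and Myh1 had 0 counts and at most 0.0569 CPM, and Mylpf had means of 0.578 CPM in NTG and 0.969 CPM in TG. Acta1 and Ckm, which heart muscle also expresses, had 3435 to 7031 CPM and 512 to 1255 CPM, with log2 fold changes of -0.13 and 0.58 (adjusted p = 0.813 and 0.232, edgeR).

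**Figure D4:**
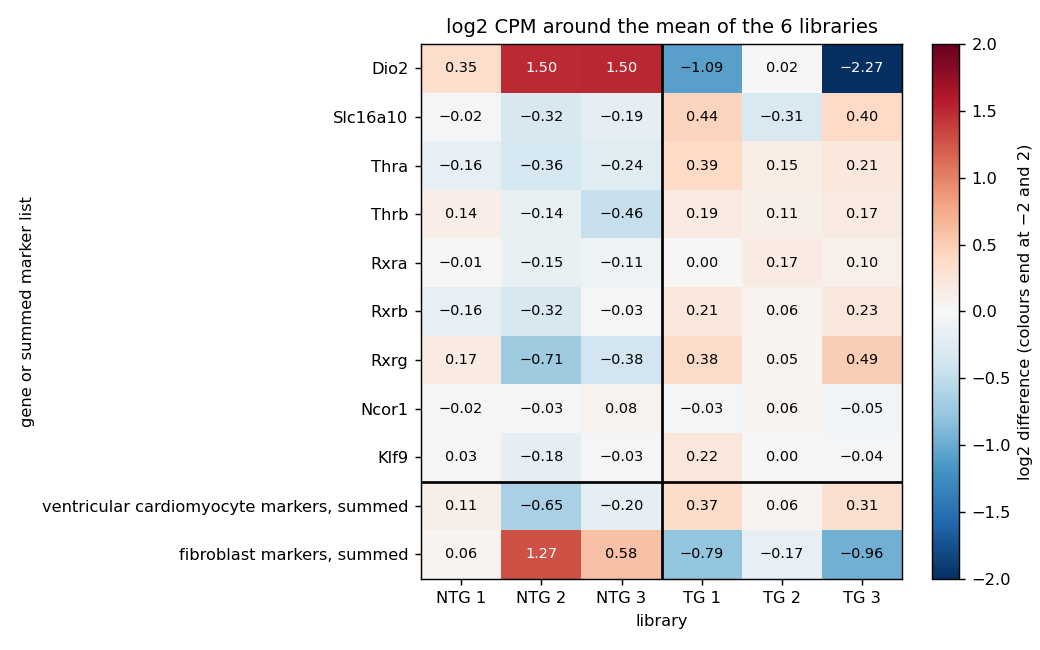
log2 CPM of the 9 genes, and of the summed ventricular cardiomyocyte and fibroblast markers, after subtracting each row's mean over the 6 libraries (columns). Red is above and blue below the mean, with the value in each cell. Dio2 and the fibroblast sum are highest in NTG 2 and NTG 3 and lowest in TG 1 and TG 3, and Rxrg and the cardiomyocyte sum are both lowest in NTG 2.

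The cardiomyocyte markers were fitted in the other direction. All 8 were fitted higher in TG, 2 of them at an unadjusted p under 0.05, with a median log2 fold change of 0.50 and summed levels of 21126 to 35776 CPM in NTG and 34471 to 42698 CPM in TG. None was at 0, and Myl2, Tnni3 and Myl3 had log2 fold changes of 0.59, 0.61 and 0.48. NTG 1 lay above TG 2 in this sum, as it did for Rxrg, and NTG 2 was lowest in the sum and in 6 of the 9 genes (Thra, Slc16a10, Rxra, Rxrb, Rxrg and Klf9). Centred on its mean, Rxrg ran from -0.71 in NTG 2 to 0.49 in TG 3, and the cardiomyocyte sum from -0.65 in NTG 2 to 0.37 in TG 1. The part of cardiomyocyte content in the values of the receptors and their partners was not tested.

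Slc16a10 encodes MCT10, which carries T3 and aromatic amino acids across the plasma membrane. It had 12.0, 9.72 and 10.6 CPM in NTG and 16.6, 9.84 and 16.1 CPM in TG. TG 1 and TG 3 were above all NTG libraries and TG 2 was among them, and the log2 fold change of Slc16a10 was 0.39 (SE 0.21, adjusted p = 0.346, edgeR). It was 0.60 without TG 2.

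Of 6 other transporter genes, 3 passed the count filter, and these 3 were all fitted lower in TG (Slc7a5 only just, with a sign that turned under some settings), with a median log2 fold change of -0.37 against -0.01 over all genes. An unadjusted p under 0.05 was reached by 2 of them. Slc7a8, encoding the amino acid and T3 carrier LAT2, had 8.74, 12.9 and 11.6 CPM in NTG and 6.92, 7.50 and 7.53 CPM in TG, with no overlap (log2 fold change -0.60, adjusted p = 0.197, edgeR). Slc3a2, the heavy chain with which LAT transporters assemble, had a log2 fold change of -0.37 (adjusted p = 0.216, edgeR). Slc7a5, which encodes the light chain LAT1, had -0.03 (adjusted p = 0.956, edgeR). Without NTG 1 Slc7a8 had an adjusted p of 0.0399 by edgeR, with a log2 fold change of -0.74. Slc16a10 was thus fitted higher where Slc7a8 and Slc3a2 were fitted lower, though its own interval of -0.09 to 0.88 includes 0. Slc17a4 had 0 counts, where 3 counts would have been 0.159 to 0.216 CPM, and this floor covers counting error only.

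The deiodinase that inactivates T3 was low and lower still in TG. Dio3 had 1.23, 6.27 and 1.27 CPM in NTG, from 18, 118 and 22 counts, and 0.144, 0.455 and 0.370 CPM in TG, from 2, 8 and 6 counts. NTG 2 stood above all other libraries, and the groups did not overlap. The log2 fold change of Dio3 was -3.13 (SE 0.82, unadjusted p = 0.00608, adjusted p = 0.196, edgeR), and it was -1.89 (adjusted p = 0.419, edgeR) without NTG 2. DESeq2 gave Dio3 an adjusted p of 0.00548. Dio2, the activating enzyme, and Dio3, the inactivating one, were therefore both lower in every TG library. Dio1 had 0 counts in every library. Among the binding proteins Serpina7 had 0 counts, Crym was under 1 CPM, and Ttr, with under 1 CPM, had a log2 fold change of -0.37 (adjusted p = 0.802, edgeR).

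Ncor1 encodes the corepressor that unliganded receptors hold. It had 152, 151 and 163 CPM in NTG and 151, 160 and 148 CPM in TG. The groups were interleaved, and the log2 fold change of Ncor1 was -0.02 (SE 0.09, 95% interval -0.22 to 0.19, adjusted p = 0.934, edgeR), with a sign that turned under some settings. Ncor1 overlaps Pigl by 82 exon bases on the opposite strand. Of 4 other corepressor complex genes, among them the deacetylase gene Hdac3, 2 were fitted higher and 2 lower, with a median log2 fold change of -0.03, and 0 passed an unadjusted p under 0.05 by edgeR. The smallest p was that of Tbl1x, with a log2 fold change of -0.12 (adjusted p = 0.406, edgeR), followed by Tbl1xr1 and Gps2.

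Coactivators take the place of corepressors when T3 binds. Of 9 coactivator genes, 6 were fitted higher and 3 lower, with a median log2 fold change of 0.09, and 1 passed an unadjusted p under 0.05. This was Ncoa3, with 72.7, 66.1 and 72.1 CPM in NTG and 96.6, 77.4 and 92.2 CPM in TG (log2 fold change 0.34, SE 0.11, adjusted p = 0.206, edgeR). Its groups did not overlap. Ppargc1a, a coactivator that drives mitochondrial genes, had the widest values of the list, with 94.4, 26.8 and 29.5 CPM in NTG and 150, 95.1 and 93.2 CPM in TG (log2 fold change 1.17, SE 0.51, adjusted p = 0.282, edgeR). NTG 1 was among the TG libraries here too, and without it the log2 fold change of Ppargc1a was 2.0 (adjusted p = 0.0204, edgeR). Ncoa2 had a log2 fold change of 0.16 (adjusted p = 0.36, edgeR).

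Klf9 is a direct target of the receptors in many tissues and encodes a zinc finger transcription factor. It had 156, 136 and 150 CPM in NTG and 179, 153 and 149 CPM in TG. TG 1 was highest and NTG 2 lowest, and the groups overlapped. The log2 fold change of Klf9 was 0.12 (SE 0.11, 95% interval -0.13 to 0.37, adjusted p = 0.572, edgeR), from 0.03 without TG 1 to 0.17 without TG 3. In the 6 other general T3-induced genes 0 passed an unadjusted p under 0.05 by edgeR, with 3 fitted higher, 3 lower and a median of 0.0032 on the log2 scale. Hr, a corepressor gene that T3 induces, had 59.3, 54.5 and 68.8 CPM in NTG and 51.6, 81.0 and 48.5 CPM in TG (log2 fold change -0.01, adjusted p = 0.983, edgeR). Thrsp, a lipogenic target, had a log2 fold change of 0.52 (SE 0.31, adjusted p = 0.394, edgeR), and Nrgn and Bcl3 had -0.48 and -0.23.

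**Figure D5:**
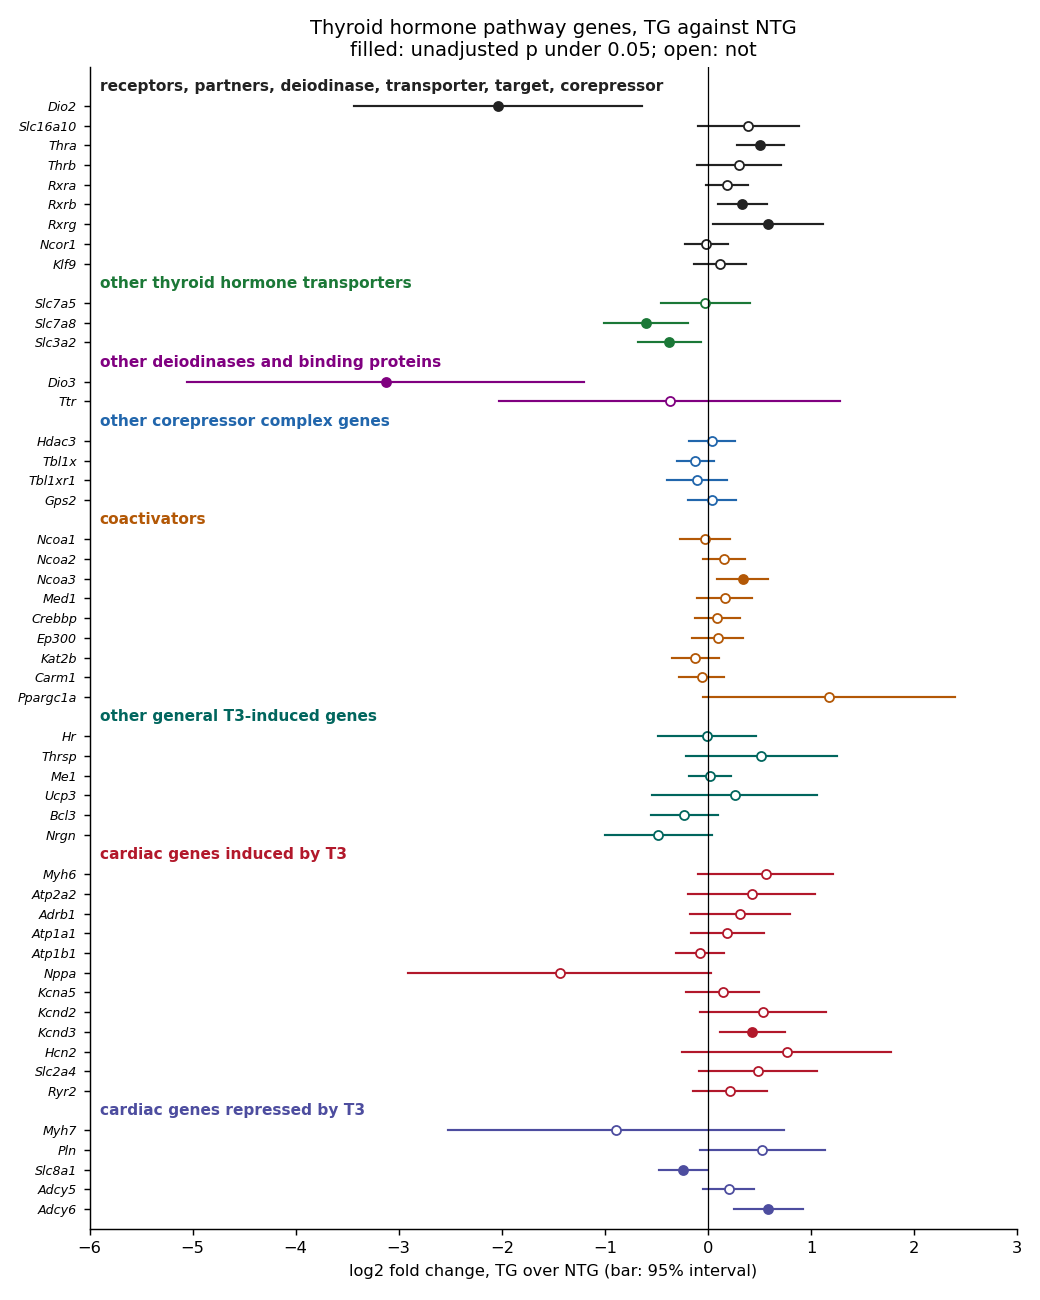
log2 fold change of TG over NTG by edgeR (horizontal axis, points) with its 95% interval (bars) for the tested genes of 8 lists, with filled points for an unadjusted p under 0.05. Dio2 and Dio3 lie furthest to the left, the tested transporters of the second list are at or below 0, and 10 of 12 cardiac genes induced by T3 are above 0.

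Cardiac genes known to respond to T3 were mixed. Of 12 induced genes 10 were fitted higher in TG, with a median log2 fold change of 0.37, and 1 passed an unadjusted p under 0.05. This was Kcnd3, a channel of the transient outward current (log2 fold change 0.43, SE 0.14, adjusted p = 0.206, edgeR). Kcnd2, of the same current, had 0.53 (adjusted p = 0.318, edgeR). Several of these genes are at the same time cardiomyocyte genes, whose markers were also fitted higher. Myh6 had 10584, 5009 and 8421 CPM in NTG and 12880, 9942 and 12541 CPM in TG, with NTG 1 above TG 2 (log2 fold change 0.56, SE 0.28, adjusted p = 0.323, edgeR). Atp2a2 had 8321, 3969 and 6141 CPM in NTG and 8675, 7467 and 8572 CPM in TG, again with NTG 1 above TG 2 (log2 fold change 0.42, SE 0.27, adjusted p = 0.414, edgeR). The other 6 fitted higher had log2 fold changes of 0.14 (Kcna5) to 0.77 (Hcn2), and Atp1b1 had -0.08. Nppa, which encodes the natriuretic peptide ANP and also rises with load, was fitted in the opposite direction (log2 fold change -1.44, SE 0.61, adjusted p = 0.275, edgeR).

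Of the 5 genes that T3 represses, 3 were fitted higher and 2 lower, with a median log2 fold change of 0.20, and 2 passed an unadjusted p under 0.05, 1 in each direction. Adcy6, an adenylyl cyclase gene, was on the side opposite to repression, with 129, 90.5 and 119 CPM in NTG and 169, 153 and 185 CPM in TG and no overlap (log2 fold change 0.59, SE 0.15, unadjusted p = 0.00377, adjusted p = 0.196, edgeR). Slc8a1, the sodium-calcium exchanger gene, was on the side of repression, with 132, 143 and 147 CPM in NTG and 129, 117 and 109 CPM in TG and no overlap (log2 fold change -0.24, SE 0.10, unadjusted p = 0.0407, adjusted p = 0.25, edgeR). Pln, encoding the calcium pump inhibitor phospholamban, had 0.53 (adjusted p = 0.314, edgeR). On all 6 libraries DESeq2 and the likelihood-ratio test called Adcy6, with adjusted p of 0.0216 and 0.0317. Without NTG 1, Adcy6 had 0.69 (adjusted p = 0.038, edgeR), Pln 0.86 (adjusted p = 0.0434, edgeR) and Slc8a1 -0.29 (adjusted p = 0.136, edgeR). Myh7 had 804, 2303 and 2312 CPM in NTG and 585, 1952 and 384 CPM in TG, with TG 2 near NTG 2 and NTG 3 and NTG 1 near the other TG libraries (log2 fold change -0.89, SE 0.68, adjusted p = 0.501, edgeR). The share of Myh6 in the sum of both myosin genes was 92.9%, 68.5% and 78.5% in NTG and 95.7%, 83.6% and 97.0% in TG. The mean share was 12.1 percentage points higher in TG (exact permutation test, two-sided, p = 0.2). NTG 1 again lay among the TG libraries, and without it the difference was 18.6 points.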

How the data were processed

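Poly-A selected RNA-seq libraries, 1 per mouse, came from the left ventricles of 3 TG and 3 NTG animals. The values deposited by the authors are raw gene counts from featureCounts, without normalization or pooling. HISAT2, DESeq2 and GRCh38, a human build, are named in the submitters' processing notes, but the identifiers and positions are mouse, and 98.3% of the 54495 genes found in GENCODE M21 have its GRCm38 coordinates. The strand setting and the treatment of multi-mapping reads are not given in the sources used here.

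Tests on the counts were run with edgeR 4.0.16 in R 4.3.3 (TMM, filterByExpr by group, robust quasi-likelihood test, no covariate) and Benjamini-Hochberg adjustment over 14774 genes. Alternatives used DESeq2 1.42.0 and limma 3.58.1. A call needed an adjusted p under 0.05 together with a difference beyond 0.5 on the log2 scale, the limits the study used. Centred log2 CPM had a prior count of 2. The tests were tried on simulated data, where edgeR and DESeq2 recovered 97% and 98% of 200 genes changed by 2 on the log2 scale, with 18 and 48 false calls. Smaller changes were not simulated, so these shares do not give the power for differences as small as those of Thra or Thrb. The 9 genes and the other lists, written from general knowledge of the pathway, were chosen with earlier results of these data known. All 9 were named, along with the 3 genes of smallest p in each other list, the cardiac T3 genes, Hint2, Nr1d1, overlapping genes and the 5 genes most like Thrb. Crym, Hr, Hdac3 and genes at or near 0 lie outside that rule and were named after their values were seen. A few genes of these lists are not reported here.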

Additional observations from a re-analysis of the deposited data

How the results depend on the processing

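Of the fold changes of the 9 genes under 18 alternatives each, 150 kept their direction and their side of the threshold, 8 passed the threshold that they had missed, and 4 changed sign, all of Ncor1. These were 0.053 with a gene length offset, 0.054 with that offset and the replicate block, 0.017 without NTG 3 and 0.0041 without TG 3. The lowest log2 fold change of Ncor1 was -0.0996, with scaling by library size alone. Among the fits that left out 1 library, the lowest for Ncor1 was -0.051, without TG 2. The number of all genes called was 0 in the fit reported, 232 without a low-count filter, 583 with DESeq2, 545 with edgeR's likelihood-ratio test, and 0 to 836 when single libraries were left out (836 without NTG 1). Among the 9 genes these counts were 1, 1, 2 and 0 to 2. The number of the 9 at an unadjusted p under 0.05 was 2 to 5 over the fits that left out 1 library (2 without NTG 2), against 10.4% to 27.0% of all genes in those fits, and the number without overlap 4 to 7 (7 without TG 2), against 28.5% to 46.7% of all genes, since fewer libraries have to be cleared. Thra per kilobase was 11.0 times Thrb on gene length and 6.65 times on coding length. The replicate numbers are shared by the groups. Same-numbered libraries correlated at 0.081, 0.173 and -0.252 after subtraction of the group means, and unlike-numbered ones at -0.253 to 0.167. With 3 libraries a group, these values cannot decide whether the numbers pair them. With the replicate block 231 genes were called, and 244 with the length offset as well, with 1 of the 9 (Thra) in each. The likeness of Hint2 to Thrb and the Myh6 share without NTG 1 were chosen after the values were seen. Dio3, with 2 to 8 counts in TG, is imprecise for its depth alone. With 3 libraries a group, the causes of these dependences were not tested.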
